A study of Homo sapiens with 8 samples.

Results

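Photoreceptor structural and outer segment genes were followed in the RNA of D283-OMO cells, and 10 genes made up the set: IMPG1, IMPG2, RBP3, PRPH2, ROM1, RP1, TULP1, AIPL1, EYS and PROM1. They are the rows, 10 of the 60668 gene rows in each count file, whose Ensembl identifiers GENCODE pairs with these symbols, and each symbol matched 1 row. The set was chosen from earlier results of the same OMO+DOX against OMO contrast, so the members' differences between these groups are given as a description, with no p-value. How many of them lie past the thresholds of the fit over all genes is counted once, beside the share of all genes, and supports nothing. D283 Med is an established medulloblastoma cell line with high MYC expression. D283-OMO is this line carrying a lentiviral transgene, selected with hygromycin, that makes FLAG-tagged OMOMYC, a dominant-negative form of MYC, when doxycycline (DOX) is added. All 8 libraries carry the transgene. The 4 OMO libraries came from untreated cells and the 4 OMO+DOX libraries from cells given DOX for 72 h, and the study describes the 4 of each group as biological replicates. Untransduced D283 Med cells given DOX were not among the libraries, so OMOMYC and DOX itself cannot be told apart here.

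A photoreceptor is a sensory neuron of the retina whose light-sensitive part, the outer segment, is a modified cilium filled with stacked membrane discs. Tetraspanins hold the disc rims, microtubule-binding proteins order the axoneme, and a matrix rich in proteoglycans and a retinoid carrier surrounds the outer segments. Medulloblastoma arises in the cerebellum, and expression of photoreceptor genes is a known feature of a subset of group 3 tumours, the subgroup in which MYC is amplified in some patients. In the study, D283 Med is regarded as lying between group 3 and another subgroup.

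The libraries were made from polyA+ RNA with a stranded kit and held between 38390696 and 54020506 counts each. Levels are given as CPM, a gene's counts relative to the library's total, with library totals scaled by the TMM method. Fold changes are log2FC of OMO+DOX over OMO with the standard error (SE) of edgeR's quasi-likelihood fit, and the 15222 genes tested are those above 1 CPM in 4 or more of the 8 libraries. A gene was called differentially expressed at a false discovery rate (FDR, by Benjamini-Hochberg over all genes tested) below 0.001 and an absolute log2FC above 2. MYC stood at 937 ± 75.5 CPM (SD, n = 4) in OMO and 1120 ± 56.6 CPM (SD, n = 4) in OMO+DOX, but counts per gene do not separate transgene from endogenous MYC reads, so this does not check the labels. OMO replicate 3 stood apart from the other OMO libraries, with a chi-square per degree of freedom of 27.04 to 39.8 against each of them where the other pairs of one group gave 3.43 to 11.7. Results that rest on it are given with and without it.

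RefSeq promoter windows of 300 bases, from 250 bases before to 50 bases after an annotated start on GRCh38.p14, were at hand for 7 of the 10 members, in 11 windows. They are shown for the most abundant member (IMPG2), for its paralogue IMPG1, for TULP1, for the member that moved the other way (EYS, upstream start) and for the PROM1 start whose window holds a homeodomain motif. Bases are 5′ to 3′ on the gene's strand, and capitals mark the motifs searched: TAATCC or its complement GGATTA, the core bound by the homeodomain factors CRX and OTX2, CAGATG or CATCTG, an E-box of the kind bound by NEUROD1, and CACGTG, the E-box of MYC and MAX. The windows are chr3:101320526-101320825 (IMPG2), chr6:76072613-76072912 (IMPG1), chr6:35512847-35513146 (TULP1), chr6:65707177-65707476 (EYS) and chr4:16076069-16076368 (PROM1), all on the minus strand.
IMPG2: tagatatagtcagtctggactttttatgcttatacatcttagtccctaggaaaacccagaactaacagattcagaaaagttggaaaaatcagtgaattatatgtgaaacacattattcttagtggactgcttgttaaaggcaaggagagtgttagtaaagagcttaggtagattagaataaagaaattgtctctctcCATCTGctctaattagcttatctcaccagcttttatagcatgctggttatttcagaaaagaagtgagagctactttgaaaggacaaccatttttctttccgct
IMPG1: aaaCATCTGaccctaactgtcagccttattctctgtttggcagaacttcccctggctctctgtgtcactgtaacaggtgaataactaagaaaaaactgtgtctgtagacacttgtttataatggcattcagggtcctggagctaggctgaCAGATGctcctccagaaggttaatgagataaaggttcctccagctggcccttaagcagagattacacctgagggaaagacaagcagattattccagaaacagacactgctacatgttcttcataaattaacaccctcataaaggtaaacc
TULP1: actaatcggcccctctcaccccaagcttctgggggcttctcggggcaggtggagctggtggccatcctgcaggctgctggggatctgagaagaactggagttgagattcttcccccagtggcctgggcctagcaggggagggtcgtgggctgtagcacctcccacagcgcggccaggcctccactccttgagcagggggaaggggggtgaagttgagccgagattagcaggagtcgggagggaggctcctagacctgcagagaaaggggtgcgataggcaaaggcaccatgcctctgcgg
EYS: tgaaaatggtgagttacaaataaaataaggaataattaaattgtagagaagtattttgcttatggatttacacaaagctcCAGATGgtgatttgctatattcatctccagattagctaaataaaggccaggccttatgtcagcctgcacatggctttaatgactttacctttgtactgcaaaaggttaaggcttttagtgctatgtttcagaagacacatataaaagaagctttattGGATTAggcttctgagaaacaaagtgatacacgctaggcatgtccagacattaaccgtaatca
PROM1: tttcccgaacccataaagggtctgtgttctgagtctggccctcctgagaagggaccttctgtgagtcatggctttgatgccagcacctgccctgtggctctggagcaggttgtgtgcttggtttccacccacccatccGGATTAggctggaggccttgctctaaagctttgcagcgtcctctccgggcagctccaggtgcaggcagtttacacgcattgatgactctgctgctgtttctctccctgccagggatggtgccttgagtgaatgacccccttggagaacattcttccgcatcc

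Searched on both strands, TAATCC was found in 1 of the 2 EYS windows, 13 to 8 bases before the start, and in 1 of the 4 PROM1 windows, 112 to 107 bases before it. CAGATG was found in the windows of IMPG2 (53 to 48 bases before the start), IMPG1 (2 matches), EYS and 1 further PROM1 window. CACGTG was found in 0 of the 11 windows, and the windows of TULP1, PRPH2 and ROM1 held none of the 3 motifs. Of all 35116 windows, 6.36% held TAATCC, 14.7% CAGATG and 7.26% CACGTG. No matches of different motifs overlap in these windows, and a match is a run of letters and not a measured binding site. The windows also differ in base composition: IMPG2 and the upstream EYS window were 35.3% G and C, TULP1 63.7% and ROM1 64.7%, around a median of 58.7% over all windows.

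The interphotoreceptor matrix genes ranged from very abundant (IMPG2) to barely detected (RBP3). IMPG2 (ENSG00000081148.12, chromosome 3, 101222546 to 101320560, minus strand) encodes a membrane-anchored proteoglycan of the matrix around the outer segments. It stood at 498, 516, 374 and 498 CPM in OMO replicates 1 to 4 and at 62.1, 60.9, 57.4 and 53.8 CPM in OMO+DOX replicates 1 to 4. Every OMO library was far above every OMO+DOX library, and OMO replicate 3 was the lowest of its group. The log2FC was -3.01 (SE 0.10), so the OMO+DOX mean was 12.4% of the OMO mean, and without OMO replicate 3 it was -3.11.

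IMPG1 (ENSG00000112706.12, chromosome 6, 75921115 to 76072678, minus strand), the secreted counterpart of IMPG2, was scarce. Its levels were 1.26, 1.58, 1.12 and 1.52 CPM in OMO and 0.708, 0.796, 0.702 and 0.549 CPM in OMO+DOX, from 55 to 82 and 25 to 36 counts. The groups did not overlap, and the fall was smaller than that of IMPG2, with a log2FC of -0.99 (SE 0.17). IMPG1 passed the low-count filter only through its OMO libraries. RBP3 (ENSG00000265203.2, chromosome 10, 47348371 to 47357875, plus strand), the retinoid carrier of the same matrix, was barely detected, with 7, 8, 6 and 8 counts in OMO and 0, 0, 1 and 0 counts in OMO+DOX. It was below the filter in both groups. The summed 29 against 1 counts, scaled by library size, give a ratio of 27.9 with an exact 95% interval of 4.63 to 1141. Such intervals and floors speak of counting error alone. The interval is taken on counts summed over the libraries of a group, so it leaves out the spread between replicates. It is not a test, since the members were chosen on this contrast. The reads also carry no molecular identifiers.

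**Figure D1:**
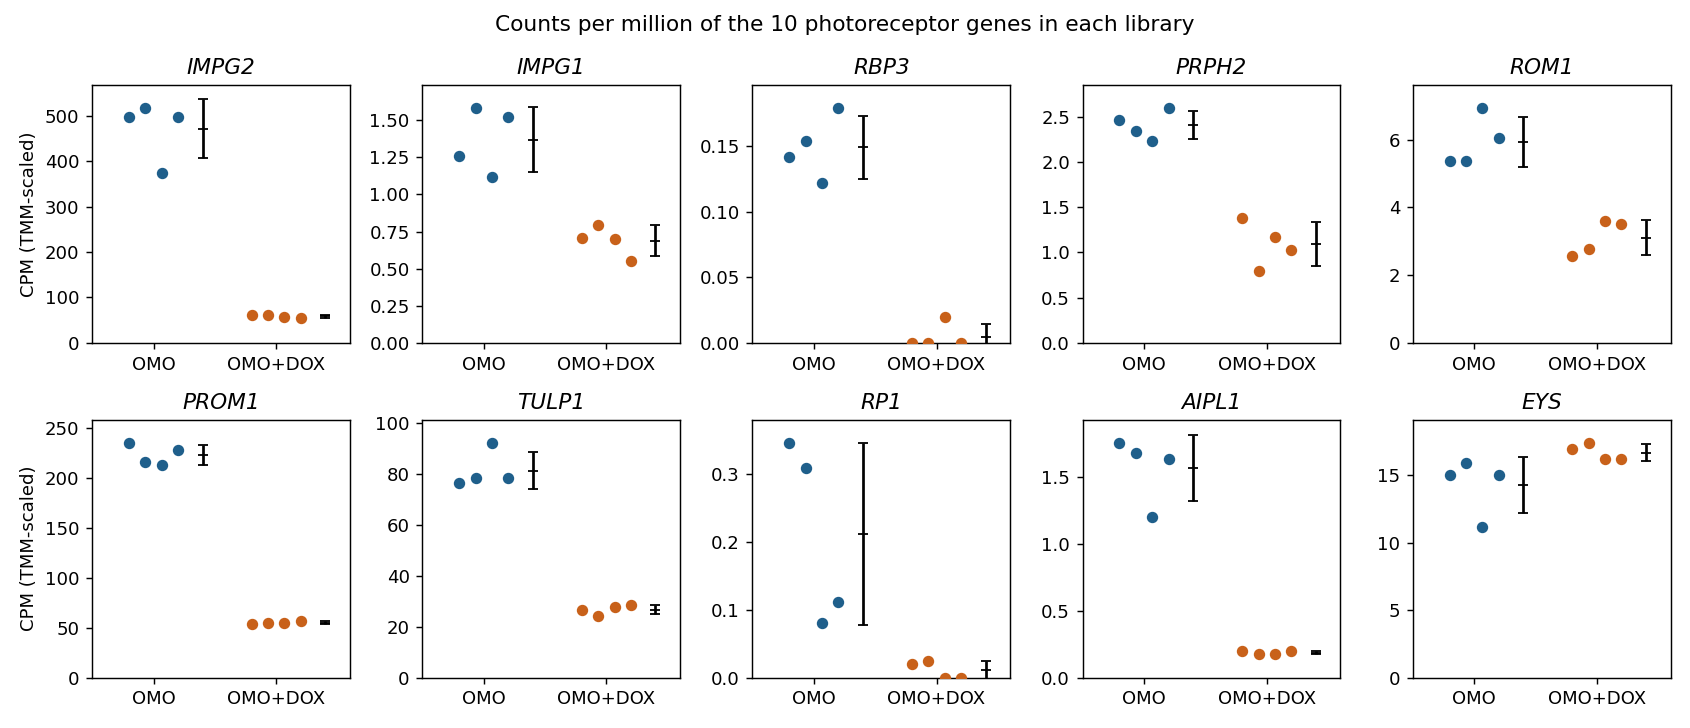
CPM (TMM-scaled, linear axes from 0) of each of the 10 genes in the 4 OMO (blue) and 4 OMO+DOX (orange) libraries, with black bars for the mean and SD. In 9 genes all orange points lie below all blue points, and in EYS they lie above, by 16.2 against 15.9 CPM at the nearest.

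The disc rim tetraspanins were both low and both lower in OMO+DOX. PRPH2 (ENSG00000112619.8, chromosome 6, 42696600 to 42722574, minus strand), peripherin-2, which shapes the rims of the discs, stood at 2.46, 2.34, 2.23 and 2.59 CPM in OMO. In OMO+DOX it stood at 1.38, 0.796, 1.17 and 1.03 CPM. The groups did not overlap, and replicates 1 and 2 of OMO+DOX differed from each other the most. The log2FC of PRPH2 was -1.12 (SE 0.15). ROM1 (ENSG00000149489.8, chromosome 11, 62611722 to 62615120, plus strand), its partner in the rim complex, stood at 5.37, 5.37, 6.92 and 6.04 CPM in OMO and 2.56, 2.78, 3.59 and 3.51 CPM in OMO+DOX. OMO replicate 3 was the highest here, and the groups again did not overlap, with a log2FC of -0.93 (SE 0.13). ROM1 shares 618 exonic bases with EML3 on the opposite strand, and its counts were fractional in all 8 libraries, which is how RSEM writes reads divided among features. EML3 stood at 34.9 CPM in OMO and 34.1 CPM in OMO+DOX. Whether counting used the strand is not given in the sources used here, so the ROM1 level is uncertain to that extent.

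PROM1 (ENSG00000007062.11, chromosome 4, 15963076 to 16084378, minus strand) encodes prominin-1, or CD133, which acts in disc formation at the base of the outer segment and is widely used as a surface marker of stem-like cells in brain tumours. It stood at 235, 216, 213 and 228 CPM in OMO and at 53.7, 54.9, 54.6 and 56.9 CPM in OMO+DOX. Both groups were tight and far apart. The log2FC was -2.02 (SE 0.05), just past the fold threshold of 2, and it was -2.0 without OMO replicate 1 and -1.89 when libraries were scaled by their totals only. PROM1 shares 166 exonic bases with FGFBP2 on the same strand, which averaged 3.0 counts in OMO and 2.0 in OMO+DOX.

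Among the genes for the axoneme, transport and protein folding, TULP1 was abundant and RP1 close to absent. TULP1 (ENSG00000112041.13, chromosome 6, 35497874 to 35512938, minus strand), a tubby-like protein needed to move proteins into the outer segment, stood at 76.4, 78.3, 92.2 and 78.5 CPM in OMO and at 26.7, 24.4, 27.6 and 28.4 CPM in OMO+DOX. OMO replicate 3 was the highest of its group, opposite to its place in IMPG2, and no library of one group reached the other. The log2FC was -1.60 (SE 0.07), and -1.54 without OMO replicate 3. AIPL1 (ENSG00000129221.16, chromosome 17, 6393693 to 6435199, minus strand), a co-chaperone that folds the PDE6 phosphodiesterase, stood at 1.75, 1.68, 1.20 and 1.63 CPM in OMO and at 0.197, 0.174, 0.176 and 0.198 CPM in OMO+DOX. These are 59 to 87 counts against 7 to 10, and AIPL1 passed the filter only through its OMO libraries. Its log2FC was -3.05 (SE 0.19), close to that of IMPG2 at a far lower level. RP1 (ENSG00000104237.11, chromosome 8, 54509422 to 54871720, plus strand), which binds the microtubules of the axoneme, had 17, 16, 4 and 5 counts in OMO and 1, 1, 0 and 0 in OMO+DOX. It was below the filter, and replicates 1 and 2 of OMO held most of its reads. The ratio of the 42 to the 2 counts, scaled by library size, was 20.2 with an exact 95% interval of 5.26 to 173. This interval is again of counting error alone, and the spread of RP1 between OMO replicates was wider than counting error.

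EYS was the member that did not fall. EYS (ENSG00000188107.15, chromosome 6, 63719980 to 65707225, minus strand) encodes the eyes shut homologue, a large matrix protein needed for the upkeep of photoreceptors. It stood at 15.0, 15.9, 11.2 and 15.0 CPM in OMO and at 17.0, 17.4, 16.2 and 16.2 CPM in OMO+DOX. The groups did not overlap, but the nearest libraries were 15.9 and 16.2 CPM, and OMO replicate 3 was the lowest library by a wide margin. The log2FC was 0.23 (SE 0.09), and 0.12 without OMO replicate 3. EYS shares 175 exonic bases with PHF3 and 204 with the pseudogene AL365217.1, both on the opposite strand, and its counts were fractional in all 8 libraries. PHF3 stood at 122 CPM in OMO and 99.7 CPM in OMO+DOX. The 7 members other than ROM1, EYS and PROM1 share no exonic base with another annotated gene, and the 8 members other than ROM1 and EYS had whole counts in every library.

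Of the 10 members, 8 passed the low-count filter and 2 (RP1 and RBP3) did not. Among the 8, IMPG2, AIPL1 and PROM1 (3) lay past the thresholds for differential expression and lower in OMO+DOX, beside 2.75% of all 15222 genes tested. At an FDR below 0.05 without a fold threshold, 7 lay lower (38.1% of all genes tested) and EYS alone (1) higher (38.5%). EYS was no longer past that threshold when any library other than OMO replicate 2 was left out. Every OMO+DOX library lay below every OMO library in 7 of the 8, beside 35.4% of all genes tested, and above in EYS, beside 36.3%. The same held in direction for the 2 members below the filter. Because the members were chosen on this contrast, nothing is read from these counts. In bulk RNA, fewer cells expressing a gene and less of its RNA per cell cannot be told apart.

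Levels of different genes can be compared only per length, and CPM were therefore divided by the kilobases of merged exons in GENCODE 29. In OMO, the order was IMPG2 (56.6 ± 7.89 CPM per kb, SD, n = 4), PROM1 (30.0 ± 1.38), TULP1 (27.5 ± 2.46), ROM1 (2.37 ± 0.293), EYS (0.835 ± 0.123), PRPH2 (0.808 ± 0.0528), AIPL1 (0.393 ± 0.0628), IMPG1 (0.360 ± 0.0577), RBP3 (0.0349 ± 0.00558) and RP1 (0.0139 ± 0.00883). The libraries of PROM1 and TULP1 overlapped, as did those of EYS and PRPH2 and of AIPL1 and IMPG1, so the order within these pairs does not exceed the replicate spread. Between TULP1 and ROM1 lay a step of 11.6 times, which sets 3 abundant members apart from 7 scarce ones. IMPG2 was above 96.1% of the 15116 tested genes with a length, PROM1 above 91.8% and TULP1 above 90.9%, whereas PRPH2 was above 15.3% and IMPG1 above 7.28%.

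In OMO+DOX the 3 abundant members drew together and changed order. TULP1 led at 9.05 ± 0.581 CPM per kb (SD, n = 4), followed by PROM1 at 7.40 ± 0.181 and IMPG2 at 7.02 ± 0.449. The libraries of PROM1 and IMPG2 overlapped and those of TULP1 did not overlap with PROM1. ROM1 (1.25 ± 0.208), EYS (0.978 ± 0.0354), PRPH2 (0.367 ± 0.0820) and IMPG1 (0.181 ± 0.0269) followed without overlap between neighbours, and AIPL1 dropped behind IMPG1 to 0.0467 ± 0.00325. RBP3 and RP1, with at most 1 count a library, could not be ordered. IMPG2 was then above 62.4% of tested genes per length, and EYS, at 16.3%, was near its place in OMO (15.6%).

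**Figure D2:**
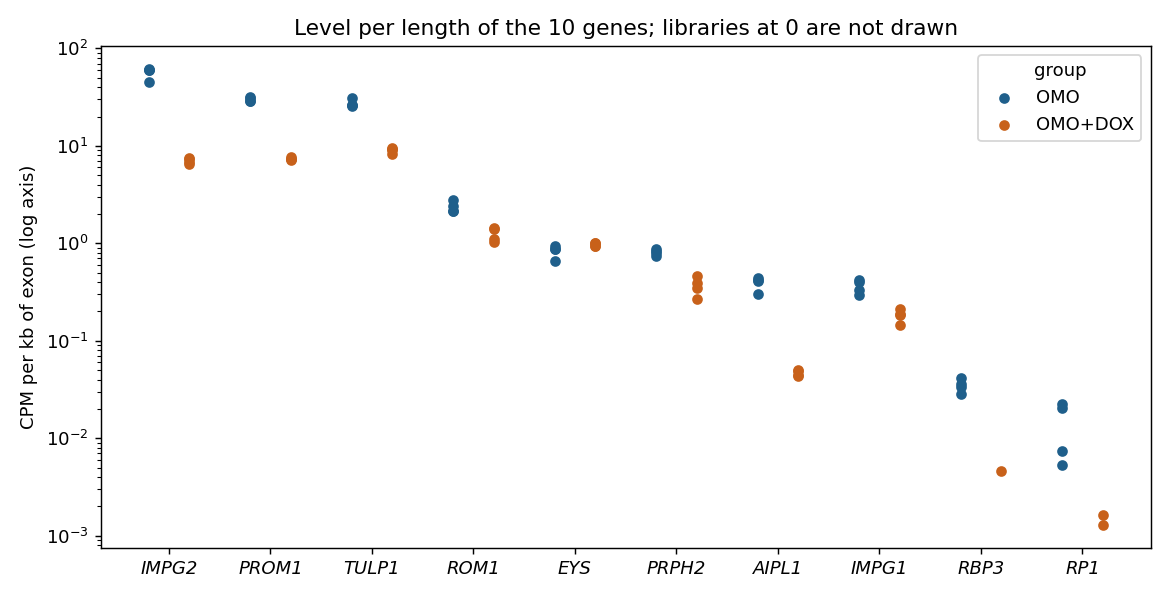
CPM per kilobase of merged exon (log axis) for each gene, 1 point per library, OMO in blue and OMO+DOX in orange, with libraries at 0 not drawn. IMPG2, PROM1 and TULP1 lie between 25.8 and 61.9 CPM per kb in OMO, and the other genes at 2.77 or below.

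Summed over the 10 members, the level was 836, 837, 702 and 831 CPM in OMO and 164, 162, 161 and 161 CPM in OMO+DOX. The OMO+DOX libraries differed little from each other, and the OMO sum was 4.94 times as high on average. IMPG2 alone held 58.8% of the summed CPM in OMO and 36.1% in OMO+DOX, and PROM1 held 27.8% and 34.0%. The sum therefore describes IMPG2, PROM1 and TULP1 (10.1% and 16.5%) far more than the other genes. EYS made up 1.78% of the sum in OMO and 10.3% in OMO+DOX.

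The members also differed in how far replicates spread, a property of the libraries within a group that did not enter the choice of genes. In OMO, the coefficient of variation (CV, SD over mean) of IMPG2 was 13.9%, where counting error alone gives 0.66% and the 142 genes of like count had a median of 6.87%. EYS was similar, at 14.7% against a median of 7.21%. PROM1, at 4.59%, and PRPH2, at 6.53%, were no wider than genes of like count. RP1 had the widest spread of the members in OMO, at 63.6% against 33.4% for genes of like count. In OMO+DOX, the CVs of IMPG2 (6.40%) and EYS (3.62%) were smaller than in OMO. IMPG2 (against 4.65%), PRPH2 (22.3% against 15.3%) and ROM1 (16.6% against 10.3%) were wider there than genes of like count, and EYS (against 5.70%) was not.

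Much of the OMO spread of IMPG2, EYS and TULP1 came from replicate 3. Compared with the mean of the other 3 OMO libraries on the log2 scale, replicate 3 was lower by -0.43 in IMPG2, -0.45 in EYS, -0.50 in AIPL1 and -0.38 in IMPG1, and higher by 0.31 in ROM1 and 0.25 in TULP1. PROM1 and PRPH2 differed little, by -0.09 and -0.14. Without this library the CV in OMO was 2.04% for IMPG2, 3.43% for EYS, 3.54% for AIPL1 and 1.49% for TULP1. It was 11.7% for IMPG1 and RBP3, 49.3% for RP1, 6.87% for ROM1, 5.22% for PRPH2 and 4.26% for PROM1. Leaving out the most distant library of a group tends to lower a CV in itself, and the value of AIPL1 is below its counting error of 11.5%. Over all tested genes above 10 CPM, replicate 3 differed with exon length: the median deviation was 0.21 for 1746 genes of up to 3000 exonic bases, 0.02 for 5981 genes above that and up to 8000 bases and -0.19 for 2572 genes over 8000 bases. The merged exons of ROM1 and TULP1 measure 2495 and 2958 bases, and those of IMPG2 and EYS 8337 and 17070 bases, whereas IMPG1 and AIPL1, at 3801 and 3985 bases, were low in replicate 3 without being long. The part of exon length in the members' values was not tested. The median log2FC by the same length classes was -0.18, -0.02 and 0.12.

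**Figure D3:**
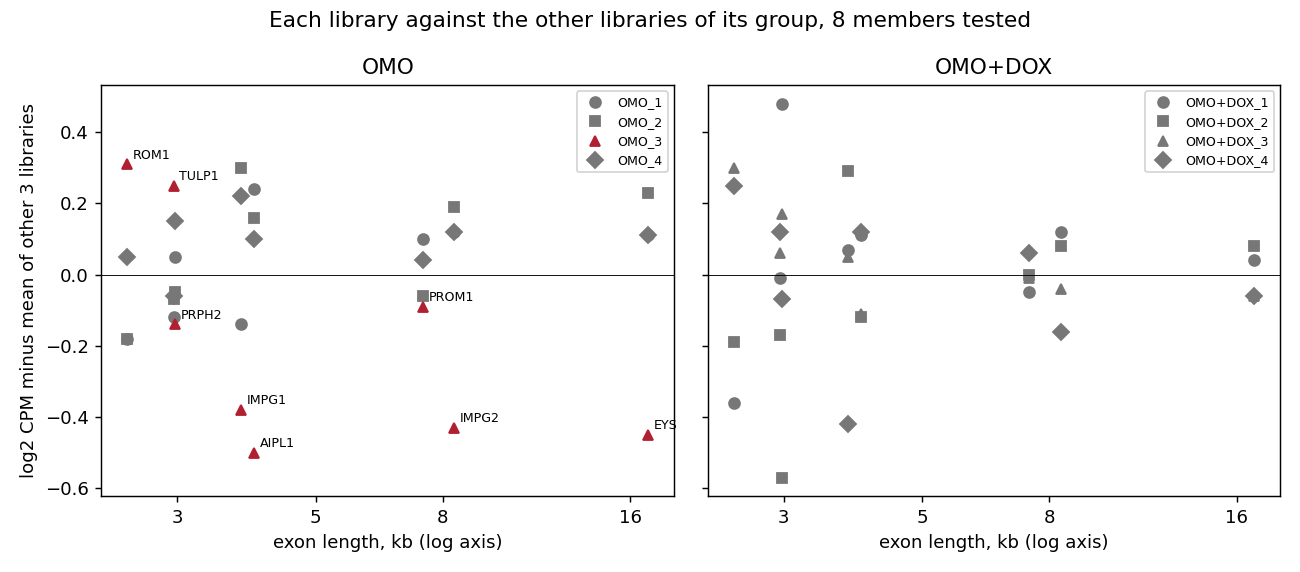
Deviation of each library from the mean of the other 3 libraries of its group, in log2 CPM, against merged exon length in kb (log axis) for the 8 members tested. OMO replicate 3 (red) lies at 0.31 in ROM1 and at -0.45 in EYS, the shortest and the longest gene drawn.

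The genes around the members give the local background. The nearest tested protein-coding gene on each side of each member, 20 in all, had a median log2FC of -0.01, and 2 of them were differentially expressed, 1 in each direction, beside 2.75% (lower) and 4.38% (higher) of all tested genes. ABI3BP, next to IMPG2 at 229031 bases, was higher in OMO+DOX (0.199 against 1.22 CPM, log2FC 2.60, SE 0.29), on the side away from SENP7, which lies 3645 bases from IMPG2 and had a log2FC of 0.40 (SE 0.11). At its OMO level, ABI3BP could pass the filter only through OMO+DOX and so had to be higher. WSCD1, next to AIPL1 at 269266 bases, was lower (17.4 against 3.49 CPM, log2FC -2.32, SE 0.09), and PIMREG on the other side, at 9216 bases, had a log2FC of -1.83 (SE 0.08). TEAD3, 798 bases from TULP1, had -0.28 (SE 0.05), and TAPT1, 76127 bases from PROM1, had 0.14 (SE 0.05). MYO6, 1578 bases from IMPG1, had 0.53 (SE 0.08), and UBR2, 3096 bases from PRPH2, had 0.98 (SE 0.07), both opposite in sign to the member beside them. The neighbours on the other side had the member's sign. These were IRAK1BP1, 2794794 bases from IMPG1, at -0.85 (SE 0.07), and TBCC, 21907 bases from PRPH2, at -0.68 (SE 0.06). Although 4 of the 10 members lie on chromosome 6, they are spread from base 35497874 to 76072678 and are not neighbours of each other.

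Other genes of photoreceptor biology were followed in 8 lists written with earlier results of these data known. The lists name 105 genes, of which 71 were tested. Of these, 18 were differentially expressed and lower in OMO+DOX, beside 2.75% of all tested genes, and 2 were higher, beside 4.38%. At an FDR below 0.05, 42 were lower and 20 higher, beside 38.1% and 38.5% of all tested genes, shares that also stand behind each count at this threshold in the lists that follow. Of the lower calls, PDE6A, GRK1, GNGT2, CNGB3, RGR and RXRG passed the filter only through OMO and so had to be lower. MAK and SLC24A2, lower at an FDR below 0.05 only, also passed in this way. FSCN2, a higher call, passed only through OMO+DOX and so had to be higher. These totals are therefore partly set by the filter. Over all 15222 genes, the median log2FC was 0.01.

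The outer segment disc and connecting cilium list lies closest to the members, and it was mixed. Of its 20 tested genes, 5 were differentially expressed and lower, 1 was higher, and the median log2FC was -0.63. CDHR1, a photoreceptor cadherin at the base of new discs, fell from 1173 ± 54.5 to 82.9 ± 5.72 CPM (SD, n = 4; log2FC -3.82, SE 0.06, Benjamini-Hochberg adjusted p = 6.28e-13 in edgeR's quasi-likelihood fit). PCARE, an actin-linked protein of disc formation, fell from 77.2 ± 3.81 to 4.12 ± 0.185 CPM. RD3, a regulator of retinal guanylate cyclase, fell from 121 ± 5.93 to 10.5 ± 0.822 CPM, and RPGRIP1, a scaffold of the connecting cilium, from 153 ± 7.36 to 35.6 ± 3.13 CPM. Against these, FSCN2, a retinal fascin that bundles actin, rose from 0.743 ± 0.108 to 3.46 ± 0.239 CPM (log2FC 2.22, SE 0.13), passing the filter only through OMO+DOX. Without OMO replicate 3, 7 genes of the list were called lower.

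The phototransduction lists hold the enzymes and channels that turn light into a voltage change. Of 17 rod genes, 10 were tested and 5 were differentially expressed and lower, with a median log2FC of -1.64 (-3.27 in the cone list). GUCA1A, an activator of guanylate cyclase, fell from 130 ± 15.9 to 3.96 ± 0.746 CPM, and GRK1, a receptor kinase of photoreceptors, from 5.58 ± 0.418 to 0.153 ± 0.0808 CPM (SD, n = 4). RGS9BP, the anchor of the RGS9 complex, fell from 44.6 ± 1.07 to 10.6 ± 0.776 CPM. GNB1, a G protein beta subunit found in most cells, stood at 941 ± 16.8 and 502 ± 11.3 CPM. Of 14 cone genes, 5 were tested, and 3 were differentially expressed and lower. GNGT2, CNGB3 and SLC24A2 (3 of the 5) passed the filter only through their OMO libraries and so had to be lower, as did PDE6A and GRK1 (2) of the tested rod genes, and the counts and medians of both lists are therefore partly set by the filter. PDE6H, the inhibitory subunit of the cone phosphodiesterase, fell from 58.5 ± 4.34 to 6.05 ± 0.768 CPM, GNGT2 from 3.35 ± 0.531 to 0.335 ± 0.0633 CPM and CNGB3, a cone channel subunit, from 2.06 ± 0.392 to 0.123 ± 0.0326 CPM. GNB3 stood at 403 ± 34.9 and 131 ± 10.5 CPM. With libraries scaled by their totals only, 3 rod genes were called, and with a filter of above 1 CPM in over 4 libraries 3 rod genes and 1 cone gene were. Of the cone genes, 5 had at most 3 counts in every library, the 3 cone opsins among them.

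In the retinoid cycle list, 7 of 12 genes were tested and moved both ways. RPE65, the isomerase of the pigment epithelium, rose from 20.9 ± 1.24 to 103 ± 6.83 CPM (SD, n = 4; log2FC 2.29, SE 0.06), and RGR, a retinal opsin-like receptor, fell from 5.04 ± 0.823 to 0.569 ± 0.144 CPM and passed the filter only through OMO. With the filter of above 1 CPM in over 4 libraries, RPE65 alone (1) was called. STRA6, a retinol transporter, stood at 50.1 ± 2.59 and 15.0 ± 0.748 CPM, and RDH11 at 52.6 ± 2.25 and 62.8 ± 0.671 CPM. The median log2FC of the list was -0.53.

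Of the 11 photoreceptor transcription factors, 7 were tested and 4 were differentially expressed and lower, with a median log2FC of -2.23. CRX, the homeodomain factor of photoreceptor fate, fell from 126 ± 6.21 to 20.9 ± 0.717 CPM (SD, n = 4), NRL, the rod determinant, from 28.6 ± 2.48 to 2.44 ± 0.263 CPM and NEUROD1 from 94.2 ± 3.58 to 20.1 ± 0.806 CPM. RXRG, a retinoid receptor of cones, fell from 3.29 ± 1.01 to 0.0546 ± 0.0389 CPM and passed the filter only through OMO. OTX2, which acts ahead of CRX, stood at 1046 ± 17.3 and 509 ± 1.78 CPM (log2FC -1.04, SE 0.04), below the fold threshold.

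The remaining lists had medians nearer 0. The 7 tested photoreceptor synapse genes had a median log2FC of -0.31, with 4 lower and 2 higher at an FDR below 0.05 (38.1% and 38.5% of all tested genes). CTBP2, whose product includes the ribbon protein, stood at 160 ± 6.11 and 129 ± 2.98 CPM (SD, n = 4), SLC17A7 at 47.9 ± 3.02 and 54.8 ± 2.07 CPM and EGFLAM, the ribbon synapse protein pikachurin, at 18.2 ± 0.961 and 50.3 ± 4.64 CPM. The 10 tested paralogues of the members had a median log2FC of 0.20, with 1 lower and 5 higher at an FDR below 0.05. The 1 lower was DCX, which fell from 16.7 ± 2.14 to 4.3 ± 0.371 CPM. Its log2FC of -1.96 (SE 0.1) was the largest change in the list and just short of the fold threshold. TUB and TULP4, relatives of TULP1, stood at 90.6 ± 7.15 and 110.0 ± 2.78 CPM and at 56.7 ± 6.93 and 62.0 ± 3.40 CPM, where TULP1 fell to 32.9% of its OMO level. TSPAN3, a tetraspanin like PRPH2 and ROM1, stood at 238 ± 10.7 and 331 ± 8.57 CPM. The 5 tested matrix genes had a median log2FC of 0.37, with 1 lower and 3 higher at an FDR below 0.05. POMGNT1, a glycosyltransferase of dystroglycan, rose from 53.1 ± 1.11 to 177 ± 8.99 CPM, CD44 rose from 102 ± 2.16 to 131 ± 2.38 CPM, and DAG1, dystroglycan, stood at 128 ± 6.50 and 132 ± 5.69 CPM.

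**Figure D4:**
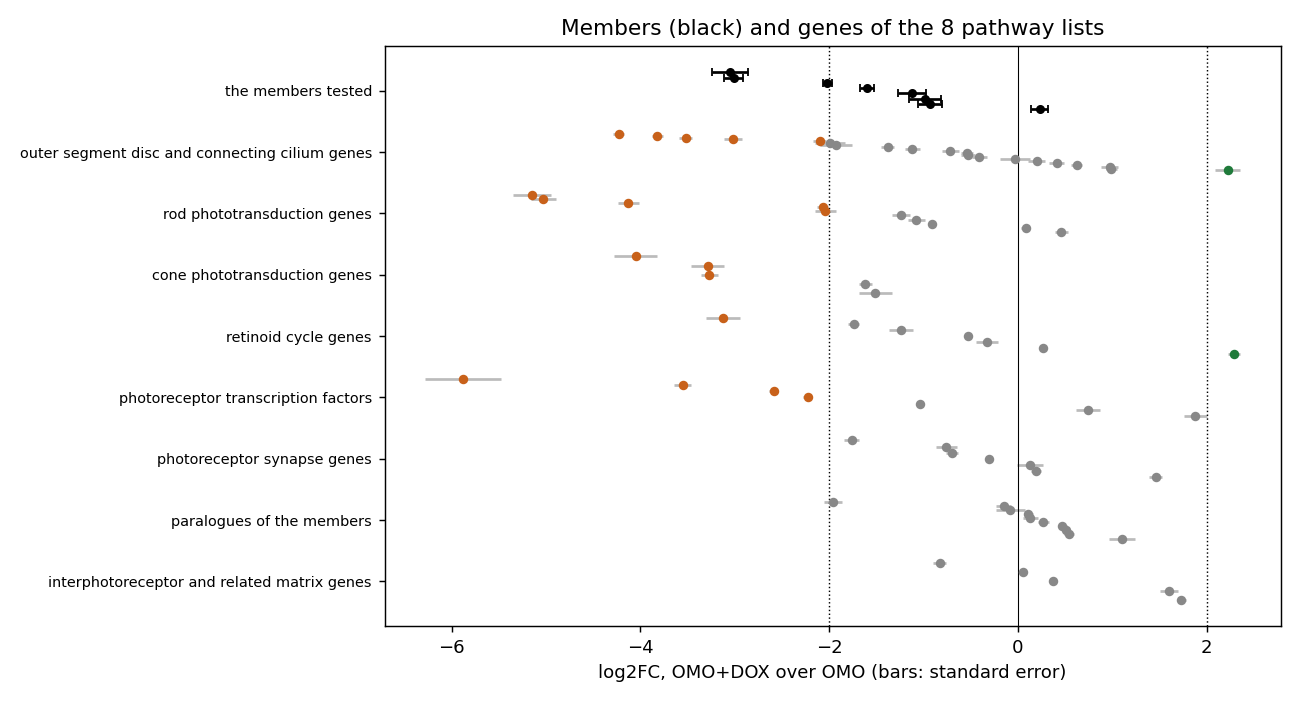
log2FC of OMO+DOX over OMO with SE for the 8 members tested (black) and for each tested gene of the 8 lists, coloured where differentially expressed and lower (orange) or higher (green), with dotted lines at -2 and 2. The members run from -3.05 (AIPL1, which passed the filter only through OMO) to 0.23 (EYS), and 3 of the 5 cone genes drawn also passed it only through OMO.

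The genes most like the leading members over the 8 libraries were found by the Euclidean distance of log2 CPM centred on each gene's mean (pseudocount 0.1 CPM). For IMPG2 they were FRMPD2 (distance 0.24, 28.9 CPM in OMO and 3.24 in OMO+DOX), RP1L1 (0.28, 14.9 and 1.83 CPM) and NFASC (0.34, 157 and 20.6 CPM). RP1L1 is the relative of RP1 in the photoreceptor axoneme and belongs to the disc and cilium list. For PROM1 they were OTX2-AS1 (0.14, 22.7 and 5.27 CPM), a noncoding RNA antisense to OTX2, GALNT10 (0.15, 996 and 257 CPM) and EDA (0.16, 33.3 and 8.16 CPM). The points share the DOX contrast and the libraries, so the distances are descriptions.

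Markers of other cell types were followed beside these results, and their part in them was not tested. Of 7 retinal pigment epithelium markers, 3 were tested. Their summed level was 38.6 to 43.5 CPM in OMO and 152 to 174 CPM in OMO+DOX, through RPE65 and MITF, which rose, whereas BEST1, the third tested, was lower (9.95 ± 0.358 and 8.02 ± 0.775 CPM, SD, n = 4) and TYR and PMEL stayed below 1 CPM on average. The 7 Mueller glia and astrocyte markers summed to 5890 to 6214 CPM in OMO and 2449 to 2571 CPM in OMO+DOX, mostly GLUL, a gene of many cell types, and all 4 tested were lower at an FDR below 0.05, while RLBP1, AQP4 and GFAP averaged at most 0.292 CPM. The 6 bipolar cell markers summed to 42.0 to 46.9 and 41.0 to 44.6 CPM, with TRPM1 lower and PRKCA higher. The 7 ganglion and amacrine cell markers summed to 155 to 168 and 59.3 to 66.0 CPM, mostly SLC6A9, with 1 lower and 3 higher of the 4 tested at an FDR below 0.05. Of these, POU4F1 passed the filter only through OMO+DOX and so had to be higher. The 8 fibroblast, endothelial and blood cell markers summed to 0.936 to 1.43 and 2.14 to 2.71 CPM, with CDH5 at 0 in all OMO libraries and at 1.52 to 2.07 CPM in OMO+DOX. CDH5, the only 1 tested, passed the filter only through OMO+DOX and so had to be higher. The others averaged below 1 CPM and went both ways. DCN (0.599 and 0.0117 CPM), COL1A2, LUM, PECAM1 and PTPRC were lower in OMO+DOX, and CD68 (0.144 and 0.426 CPM) and CD3E were higher. The 11 markers of the medulloblastoma line summed to 3107 to 3239 and 1982 to 2137 CPM, with OTX2 among the highest in both groups. Of the 10 tested, 7 were lower and 3 higher at an FDR below 0.05, beside 38.1% and 38.5% of all tested genes. Differentially expressed were 2 lower and 1 higher, beside 2.75% and 4.38%.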

How the data were processed

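RNA-Seq of polyA+ RNA from 4 OMO and 4 OMO+DOX libraries of D283-OMO cells was analysed. The authors used Trim Galore for trimming, STAR for alignment and RSEM for quantification, on GRCh38 and GENCODE 32, per the labels and the study's methods. They deposited expected counts per gene, without normalization, so trimming, alignment and the division of shared reads could not be repeated. Total counts were 38390696 to 54020506, and 3 counts (the floor) correspond to at most 0.0746 CPM.

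Expected counts were rounded and fitted with edgeR 4.0.16 in R 4.3.3 (TMM, quasi-likelihood test, no covariates, Benjamini-Hochberg over 15222 genes). CPM are TMM-scaled. Coordinates, exon lengths and 58561 of 60668 identifiers come from GENCODE 29. All 156 symbols of the lists matched. The fit was tested on simulated data: for OMO+DOX against OMO, 197 of the 200 genes given a log2FC of 3 were found and 0 of the other genes were called (15222 genes in all). The other genes were simulated without a difference between groups, and no library stood apart, unlike in the real data. With the fold threshold, false calls were unlikely there, so their number does not check the fit under the real conditions. Other steps used Python 3.11.15, pandas 2.3.3, numpy 2.4.6 and scipy 1.17.1.

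The members and lists were chosen with earlier results of these data known. The text names all members, the 3 highest genes and up to 2 differentially expressed rises and falls of each of the 8 pathway lists, the members' neighbours and overlapping genes, the 3 genes most like IMPG2 and PROM1, and MYC. Listed genes that passed the filter through a single group are also named, and DCX was named after its values were seen. Other genes named with the 6 marker lists (retinal pigment epithelium, Mueller glia and astrocyte, bipolar, ganglion and amacrine, fibroblast, endothelial and blood, medulloblastoma line) were chosen after their values were seen. Alternatives were DESeq2 1.42.0 (size factors, Wald test), library size only, other filters, a threshold of 0.01 on the FDR, a replicate block and each library left out. Values without OMO replicate 3 for non-overlap and for the FDR of 0.05 were added after seeing the data.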

Additional observations from a re-analysis of the deposited data

Results flagged for a closer look

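In groups of 4 libraries, a value was marked when its gap to the nearest other library took a larger share of the group's range than Dixon's 95% critical value allows. Of 22 groups examined, 4 were marked, and chance marks about 1 in 20 groups, but the marks are not independent and their number is not compared with chance. Of these marks, 3 belong to OMO replicate 3: IMPG2 at 374 CPM, low, TULP1 at 92.2 CPM, high, and the summed level of the members at 702 CPM, low, which is mostly IMPG2 and repeats its mark. The fourth is RBP3 in OMO+DOX replicate 3, at 0.0195 CPM, which is 1 count where the other libraries of the group had 0. With counts of 0, 0, 0 and 1 such a mark is fixed.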

How the results depend on the processing

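All tested members kept the direction of their log2FC under every alternative in which they were fitted: IMPG2 ranged from -3.11 to -2.89, AIPL1 from -3.17 to -2.93, PROM1 from -2.04 to -1.89, TULP1 from -1.64 to -1.48, PRPH2 from -1.25 to -1.0, IMPG1 from -1.08 to -0.87, ROM1 from -1.0 to -0.80 and EYS from 0.12 to 0.35. The filter decides most: with a filter of above 1 CPM in over 4 libraries, which drops AIPL1 and IMPG1, 562 genes and 13 pathway genes were differentially expressed against 1084 and 20, and with no filter 2097 genes were, and 5 members, RBP3 and RP1 included, had an absolute log2FC above 2 against 3. With library size only, which moved the median log2FC of all tested genes from 0.01 to 0.14, the summed level of the members had a log2 ratio of -2.18 in place of -2.31. Leaving out 1 library at a time gave 1072 to 1091 differentially expressed genes, 19 to 23 pathway genes, 2 to 3 members above an absolute log2FC of 2 and a summed log2 ratio of -2.36 to -2.28. The paralogue list gained 1 call without OMO replicate 3 or OMO+DOX replicate 1. With the replicate number as a block, 1085 genes, 20 pathway genes and 3 members were called. The same-numbered samples had residual correlations of 0.157, 0.144, 0.241 and -0.176, so the numbers were not taken to pair the samples. Without OMO replicate 3, the members were still 9 below and 1 above without overlap. Depth limits RBP3 and RP1, and in OMO+DOX AIPL1.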
